A study of Homo sapiens with 18 samples.

Results

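The genes described here are the antioxidant targets of NRF2 and its own control axis in triple-negative breast cancer (TNBC) cells. They are 9 listed genes: the targets HMOX1, AKR1C1, NQO1, GCLC, GCLM, TXNRD1 and SRXN1, the transcription factor gene NFE2L2, which encodes NRF2, and KEAP1, which encodes its repressor. The tables held 25673 genes for PBRM1 silencing, 25540 for IRF1 silencing and 25557 for MUC1 silencing, and the 9 genes were found in each of them. RNA-seq had been done on 18 libraries, 3 for each of 6 groups, with total RNA taken from triplicate cultures. The study asked how the MUC1-C oncoprotein acts through the chromatin remodelling subunit PBRM1 and the interferon-responsive factor IRF1 on gene expression in TNBC cells.

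In the first experiment, BT-549 cells stably expressing a PBRM1shRNA (3 libraries) were set against BT-549 cells stably expressing a control shRNA (3 libraries). The study describes such controls as control shRNA cells, whereas the names of these 3 data columns give the line and no hairpin. The second experiment set BT-549 cells with a stable IRF1shRNA (3 libraries) against BT-549 control shRNA cells of its own (3 libraries). The third used MDA-MB-436 cells carrying a tetracycline-inducible MUC1 hairpin (MDA-MB-436/tet-MUC1shRNA), cultured with 500 ng/ml doxycycline (DOX; 3 libraries) or with 0.1% DMSO as the vehicle (3 libraries). By the study's methods, cells carrying a hairpin vector were selected for resistance to the drug puromycin, and all 6 groups are taken to be such cells. BT-549 cells were cultured with 10 µg/ml insulin and all cells with 10% serum. BT-549 is BRCA1 wild-type and MDA-MB-436 is BRCA1 mutant. Each target was silenced with 1 hairpin in these libraries, and whether the silenced cells were a clone or a pool was not given in the sources used here. No DOX library without the MUC1 hairpin was analysed, so DOX and MUC1 silencing cannot be told apart. Each p-value below rests on the spread among triplicate cultures of 1 line. In the primary tests of BT-549 genes that spread was taken from genes of similar level and is not the gene's own. In bulk RNA, fewer expressing cells and less RNA per cell cannot be told apart.

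NRF2 is held low in unstressed cells because KEAP1 binds it and hands it to a CUL3 ubiquitin ligase for degradation. Oxidants and electrophiles modify cysteines of KEAP1, NRF2 then accumulates, pairs with a small MAF protein and binds antioxidant response elements in its target genes. Its targets supply glutathione, regenerate thioredoxin and peroxiredoxins, reduce quinones and carbonyls and break down haem, and in tumor cells a persistently active NRF2 is known for resistance to oxidative stress and to drugs. Because the axis works largely through protein stability, transcript levels of NFE2L2 and KEAP1 give only the RNA side of it.

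Promoter windows are shown for the members in which an element-like sequence was found, since the 9 genes are grouped by a shared binding factor. The RefSeq promoters (GRCh38.p14, 250 bases before to 50 after each annotated start) were searched on both strands for the core TGACNNNGC, in which N is any base. It reads GCNNNGTCA on the opposite strand, and the search does not include flanking bases of the element or other motifs. Entries were found for 8 of the 9 genes, in 11 windows, with none for HMOX1. The core was present in 4 windows of 3 genes (GCLM, KEAP1 and TXNRD1), and 13.3% of all 35116 promoter windows held it. Each line below is read 5′ to 3′ along the gene's own strand, with the core in capitals.
GCLM, chr1:93909436-93909484, minus strand: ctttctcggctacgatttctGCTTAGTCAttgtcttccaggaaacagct
KEAP1, chr19:10502774-10502822, minus strand: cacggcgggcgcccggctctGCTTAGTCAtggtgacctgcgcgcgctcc
TXNRD1, chr12:104286910-104286958, plus strand: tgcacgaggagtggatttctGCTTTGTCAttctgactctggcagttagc
TXNRD1, chr12:104215660-104215708, plus strand: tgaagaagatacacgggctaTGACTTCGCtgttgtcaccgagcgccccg
The first base of the core lay at -34 from the start in GCLM and at -31 in KEAP1, where the 9 bases were the same, at -102 in the downstream TXNRD1 window and at -99 in the upstream one. Further matches stood at -54 in the same KEAP1 window and at -8 in the upstream TXNRD1 window. A match of this kind is a description of letters and not a binding site, and its absence from the other windows says nothing about NRF2, because elements of these genes can lie farther away.

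In every experiment the silenced gene was lower in the libraries labelled as silenced. PBRM1 stood at 2.69 to 3.22 TPM, a share of transcripts corrected for transcript length, in PBRM1shRNA cells, against 10.7 to 12.6 TPM in control cells. IRF1 stood at 1.03 to 1.30 TPM in IRF1shRNA cells, against 4.49 to 5.22 TPM in control cells. MUC1 stood at 2.71 to 3.65 TPM with DOX, against 4.97 to 6.37 TPM with vehicle. IRF1 itself was lower in PBRM1shRNA cells (log2 fold -1.59), as was MUC1 (-0.54), and PBRM1 was lower with DOX (-0.60). No change was detected in PBRM1 (0.02) or MUC1 (-0.08) with IRF1 silenced, or in IRF1 with DOX (0.04). Short noncoding RNAs took 75.7 to 79.2% of all TPM with PBRM1 silencing and its control, 84.8 to 88.5% with IRF1 silencing and its control and 12.04 to 15.2% in MDA-MB-436, so that TPM values of other genes in BT-549 are small and move with that share. Leukocyte markers were limited to CD68 at 1 TPM or more in BT-549 (1 of 12) and to CD14 and CD68 in MDA-MB-436 (2 of 12), with CD3E and MS4A1 at 0, and no erythroid marker (0 of 4) reached 1 TPM. Summed leukocyte markers were at 12.6 to 13.9 TPM in PBRM1shRNA cells against 31.3 to 35.8 TPM in control cells, at 5.98 to 6.95 TPM in IRF1shRNA cells against 8.24 to 9.39 TPM in control cells, and at 105.2 to 116.4 TPM with DOX against 108.6 to 115.8 TPM with vehicle, and their part in the results was not tested. Within that sum CD14 was higher with DOX, at 9.03 ± 1.91 TPM, against 4.34 ± 0.377 TPM with vehicle (log2 fold 0.89), and CD68 was lower in PBRM1shRNA cells (-1.32) and IRF1shRNA cells (-0.45). Of 7 endothelial markers, ROBO4 reached a mean of 1 TPM in both groups of the PBRM1 experiment, and KDR and ESAM did so with vehicle. Of the receptors that define TNBC by their lack, ESR1 and PGR were below 1 TPM in every group and ERBB2 was above it, and the mesenchymal markers VIM, FN1 and CDH2 were above 1 TPM in all 6 groups. Among these, FN1 was lower (-1.35) and CDH2 higher (0.45) in PBRM1shRNA cells, VIM was lower in IRF1shRNA cells (-0.59), and VIM (-0.82) and CDH2 (-0.24) were lower and FN1 higher (0.41) with DOX. SPARC, the remaining listed mesenchymal marker, did not share that pattern. It was above 1 TPM in the BT-549 groups, but had means of 0.245 TPM with DOX and 1.03 TPM with vehicle. SPARC was also lower in PBRM1shRNA cells (-0.45). VIM was called higher in PBRM1shRNA cells (0.25), but was at -0.03 under quantile scaling and not called without PBRM1shRNA replicate 1.

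The level of the 9 transcripts within a group ran over about the same order in all of them, with NQO1 and TXNRD1 near the top and AKR1C1 at the bottom. TPM is a per-length scale, so levels of different genes can be compared within a table. The 3 tables were normalised separately, and levels are not compared between them. In PBRM1shRNA cells the order was NQO1, TXNRD1, HMOX1, NFE2L2, KEAP1, GCLM, SRXN1, GCLC and AKR1C1, and only the neighbours NFE2L2 and KEAP1 overlapped in their libraries. In the control cells of that experiment HMOX1 stood second and overlapped with TXNRD1, and NFE2L2 stood clearly above SRXN1 and KEAP1. In IRF1shRNA cells the libraries of NQO1, HMOX1 and TXNRD1 overlapped with their neighbours at the top, whereas in their control cells NQO1, TXNRD1 and HMOX1 followed each other without overlap. With DOX the libraries of NQO1 and TXNRD1 overlapped at the top and HMOX1 stood next to GCLC, near the bottom. With vehicle TXNRD1 and NQO1 also overlapped, and HMOX1 stood above GCLM, KEAP1 and GCLC.

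**Figure D1:**
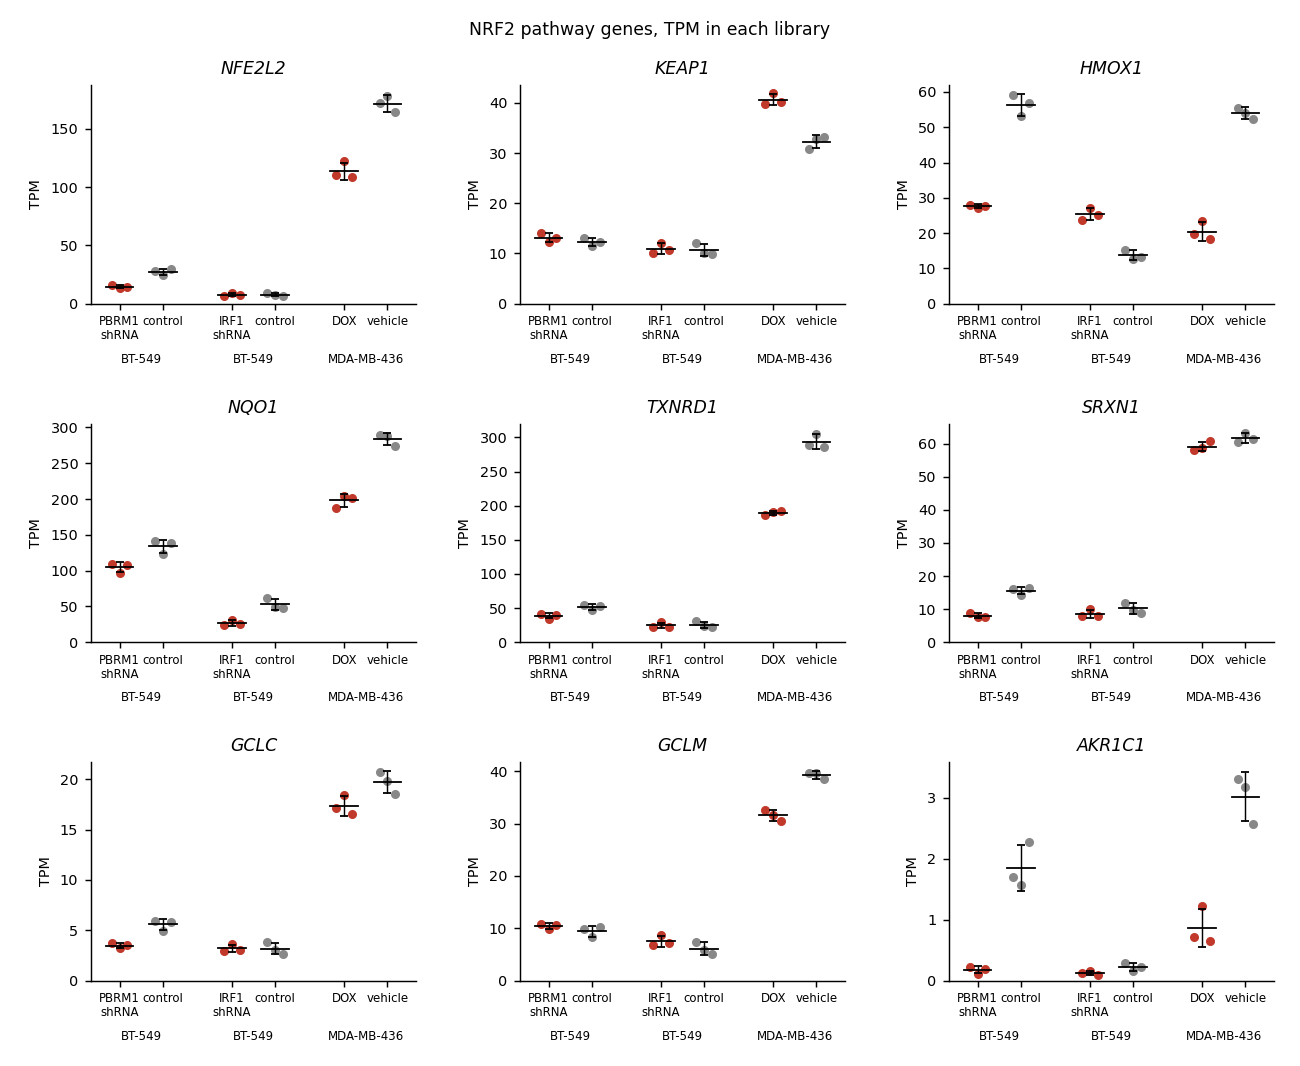
TPM (linear axis) of the 9 genes in each library, 1 panel a gene, with silenced libraries left of their control or vehicle in each experiment; points are libraries, the black line is the mean and the bar the SD of 3. HMOX1 was at 27.1 to 28.1 TPM in PBRM1shRNA cells against 53.1 to 59.2 TPM in control cells and at 18.2 to 23.4 TPM with DOX against 52.4 to 55.6 TPM with vehicle, but at 23.9 to 27.3 TPM in IRF1shRNA cells against 12.6 to 15.3 TPM in control cells.

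NFE2L2 (chr2:177227595-177392697, minus strand, GRCh38, GENCODE v29) encodes NRF2, the activator of the group. Its level was 15.7, 13.7 and 14.6 TPM in PBRM1shRNA cells, against 28.3, 24.6 and 29.4 TPM in control cells. The groups did not overlap, and silencing of PBRM1 was associated with a fall of NFE2L2 to 14.7 ± 1.01 TPM, against 27.4 ± 2.54 TPM in control cells (SD, n = 3 each), a log2 fold change of -0.86 ± 0.088 (SE; limma, adjusted p = 2.1e-21). Fold changes are differences of log2(TPM + 1), which understate the change of low genes, and adjusted p-values are limma's moderated tests with Benjamini-Hochberg adjustment over all genes tested in the experiment. With IRF1 silenced, NFE2L2 was at 6.82, 8.90 and 7.40 TPM, against 9.23, 7.13 and 6.58 TPM in control cells. These groups overlapped and no change was detected (log2 fold 0.02 ± 0.15, limma, adjusted p = 0.958), although the sign turned when IRF1shRNA replicate 2, control replicate 2 or control replicate 3 was left out (-0.08 to 0.14 over the 6 omissions). It was called higher with short noncoding RNAs removed (0.14, limma, adjusted p = 0.0442) and under quantile scaling (0.10, adjusted p = 0.0429). NFE2L2 stood at 111, 122 and 108 TPM with DOX, against 172, 178 and 164 TPM with vehicle. Every DOX library was below every vehicle library, and NFE2L2 fell by 0.59 ± 0.052 on the log2 scale (limma, adjusted p = 2.64e-05).

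KEAP1 (chr19:10486120-10503741, minus strand) is the adaptor through which NRF2 is degraded. It was at 13.996, 12.2 and 13.2 TPM in PBRM1shRNA cells, against 13.0, 11.4 and 12.4 TPM in control cells. The groups overlapped, and the difference of 0.09 ± 0.088 (log2, limma, adjusted p = 0.379) did not pass, whereas after median-ratio and quantile scaling it did, as higher in PBRM1shRNA cells (0.12, adjusted p = 0.00855, and 0.14, adjusted p = 0.00693, both limma). IRF1shRNA cells had 10.2, 12.1 and 10.6 TPM of KEAP1, against 12.02, 10.1 and 9.88 TPM in control cells. These libraries overlapped too (0.04 ± 0.15, limma, adjusted p = 0.891), the sign turned without IRF1shRNA replicate 2 or control replicate 3 (-0.03 to 0.12 over the 6 omissions), and KEAP1 was called higher after removal of short noncoding RNAs, median-ratio scaling and quantile scaling (0.16, 0.11 and 0.14, with limma adjusted p = 0.00462, 0.0267 and 0.00619). With DOX, KEAP1 was at 39.8, 41.9 and 40.2 TPM, against 30.8, 32.9 and 33.2 TPM with vehicle. All DOX libraries were above all vehicle libraries, and KEAP1 rose by 0.32 ± 0.049 on the log2 scale (limma, adjusted p = 5.81e-04).

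The ratio of the 2 transcripts, taken within each library, does not depend on how much of a library the short RNAs took. NFE2L2 over KEAP1 was 1.12, 1.12 and 1.11 in PBRM1shRNA cells, against 2.17, 2.15 and 2.38 in control cells. With DOX it was 2.78, 2.91 and 2.69, against 5.60, 5.42 and 4.94 with vehicle. In both experiments the silenced libraries lay wholly below their controls, at 0.501 and 0.525 of the control mean. IRF1shRNA cells had ratios of 0.671, 0.733 and 0.695, against 0.767, 0.706 and 0.666 in control cells, which overlapped (0.981 of the control mean). An exact two-sided permutation test gave p = 0.1 for the PBRM1 and MUC1 experiments, which is the smallest value that 3 against 3 libraries allow, and p = 0.7 for the IRF1 experiment, so none of these can reach 0.05.

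HMOX1 (chr22:35380361-35394214, plus strand) encodes heme oxygenase-1, the inducible enzyme that splits haem into biliverdin, iron and carbon monoxide. It is repressed by BACH1 and activated by NRF2 and by other stress-responsive factors. HMOX1 was at 28.1, 27.1 and 27.8 TPM in PBRM1shRNA cells, against 59.2, 53.1 and 56.9 TPM in control cells. It was thus lower in each silenced library by a wide gap, with a log2 fold change of -1.002 ± 0.087 (limma, adjusted p = 1.97e-29). In IRF1shRNA cells its level was 23.9, 27.3 and 25.2 TPM, against 15.3, 12.6 and 13.2 TPM in control cells. Here all silenced libraries were above all control libraries and HMOX1 rose, by 0.85 ± 0.15 (log2, limma, adjusted p = 4.06e-07). With DOX it was at 19.7, 23.4 and 18.2 TPM, against 55.6, 54.1 and 52.4 TPM with vehicle. The groups were far apart, and the log2 fold change was -1.37 ± 0.082 (limma, adjusted p = 3.17e-06).

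NQO1 (chr16:69706996-69726951, minus strand) encodes NAD(P)H:quinone oxidoreductase 1, which reduces quinones and is widely read as a marker of NRF2 activity. PBRM1shRNA cells had 109, 96.4 and 109 TPM, against 141, 124 and 138 TPM in control cells. The lowest control library was above the highest silenced one, and NQO1 fell by 0.36 ± 0.086 on the log2 scale (limma, adjusted p = 9.08e-05). After IRF1 silencing NQO1 was at 24.2, 31.1 and 24.8 TPM, against 62.2, 49.1 and 47.5 TPM in control cells. The groups were again apart, with a log2 fold change of -0.96 ± 0.15 (limma, adjusted p = 6.64e-09). DOX libraries had 188, 205 and 202 TPM, against 289, 288 and 275 TPM in vehicle libraries. NQO1 was lower in all 3 of them, by -0.52 ± 0.042 (log2, limma, adjusted p = 1.65e-05), so it fell in each of the 3 experiments, unlike HMOX1.

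HMOX1 over NQO1 within a library sets side by side 2 targets that moved in opposite directions with IRF1 silenced. Both fell in the PBRM1 and MUC1 experiments. The ratio restates the values of the 2 genes given above and is no separate support for them. The ratio was 0.258, 0.281 and 0.256 in PBRM1shRNA cells, against 0.421, 0.429 and 0.412 in control cells. It was 0.984, 0.877 and 1.02 in IRF1shRNA cells, against 0.246, 0.257 and 0.277 in control cells. With DOX it was 0.105, 0.114 and 0.0904, against 0.192, 0.188 and 0.191 with vehicle. The ratio was therefore 0.630 of the control mean with PBRM1 silenced, 3.69 times the control mean with IRF1 silenced and 0.542 of the vehicle mean with DOX, without overlap in any experiment. The exact two-sided permutation p was 0.1 in each, again the smallest possible with 3 against 3 libraries.

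**Figure D2:**
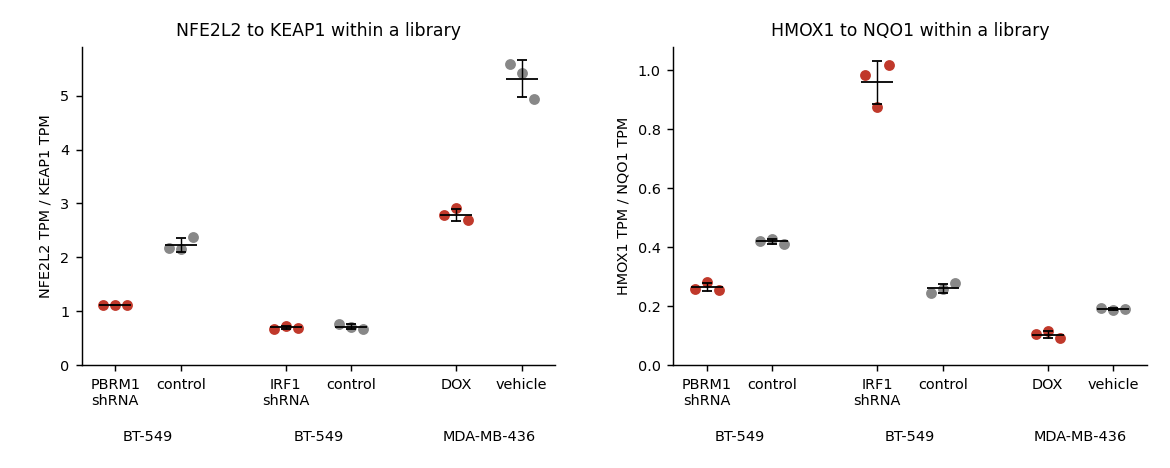
NFE2L2 over KEAP1 and HMOX1 over NQO1 (TPM divided by TPM, no unit) in each library, with silenced libraries left of their control or vehicle; points are libraries and the line and bar are the mean and SD of 3. NFE2L2 over KEAP1 averaged 1.12 in PBRM1shRNA cells against 2.23 in control cells and 2.79 with DOX against 5.32 with vehicle, and HMOX1 over NQO1 averaged 0.960 in IRF1shRNA cells against 0.260 in control cells.

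TXNRD1 (chr12:104215779-104350305, plus strand) encodes cytosolic thioredoxin reductase, which keeps thioredoxin reduced at the cost of NADPH. It was at 41.1, 34.2 and 40.1 TPM in PBRM1shRNA cells, against 54.7, 47.4 and 53.0 TPM in control cells. Silenced libraries lay below control libraries without overlap, and TXNRD1 fell by 0.42 ± 0.087 on the log2 scale (limma, adjusted p = 5.34e-06). IRF1shRNA cells had 22.4, 29.1 and 22.9 TPM, against 30.5, 24.02 and 22.1 TPM in control cells. The libraries overlapped and no change was detected (-0.04 ± 0.15, limma, adjusted p = 0.900), with a sign that turned without IRF1shRNA replicate 1, IRF1shRNA replicate 3 or control replicate 1 (-0.15 to 0.09 over the 6 omissions). With DOX the level was 186, 190 and 192 TPM, against 289, 306 and 285 TPM with vehicle. TXNRD1 was lower in all DOX libraries, by -0.63 ± 0.037 (log2, limma, adjusted p = 2.85e-06).

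SRXN1 (chr20:646615-653370, minus strand) encodes sulfiredoxin, which repairs over-oxidised peroxiredoxins. It was at 8.82, 7.53 and 7.59 TPM in PBRM1shRNA cells, against 16.0, 14.4 and 16.3 TPM in control cells. The groups were well apart and SRXN1 fell by 0.89 ± 0.088 on the log2 scale (limma, adjusted p = 1.34e-22). In IRF1shRNA cells it was at 7.91, 10.0 and 7.96 TPM, against 11.99, 9.77 and 8.87 TPM in control cells. Replicate 2 of the silenced cells exceeded control replicates 2 and 3, and the log2 fold change of -0.22 ± 0.15 did not pass (limma, adjusted p = 0.311), although SRXN1 was called lower once short noncoding RNAs were removed (-0.12, limma, adjusted p = 0.0407) and after both rescalings (-0.15 and -0.13). With DOX it was at 58.0, 58.7 and 60.8 TPM, against 60.4, 63.2 and 61.5 TPM with vehicle. These ranges overlapped, and SRXN1 differed by -0.06 ± 0.041 (log2, limma, adjusted p = 0.244), with a call, as lower, only under quantile scaling (-0.11, adjusted p = 0.0395, limma).

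GCLC (chr6:53497341-53616970, minus strand) encodes the catalytic subunit of glutamate-cysteine ligase, the rate-limiting enzyme of glutathione synthesis. Its level was 3.70, 3.26 and 3.50 TPM in PBRM1shRNA cells, against 5.97, 4.95 and 5.84 TPM in control cells. No silenced library reached the lowest control library, and GCLC fell by 0.55 ± 0.087 on the log2 scale (limma, adjusted p = 1.2e-09). IRF1shRNA cells had 2.91, 3.61 and 3.07 TPM of GCLC, against 3.83, 3.05 and 2.69 TPM in control cells. The libraries were mixed (0.01 ± 0.13, limma, adjusted p = 0.981), the sign turned without IRF1shRNA replicate 2, control replicate 2 or control replicate 3 (-0.08 to 0.11 over the 6 omissions), and a call, as higher, appeared under quantile scaling (0.10, limma, adjusted p = 0.0218). With DOX, GCLC was at 17.1, 18.4 and 16.5 TPM, against 20.7, 19.8 and 18.5 TPM with vehicle. The highest DOX library stayed just below the lowest vehicle library, and the log2 fold change of -0.17 ± 0.065 lay at the threshold (limma, adjusted p = 0.0501). It was called lower under 7 of 14 alternatives (adjusted p = 0.0178 to 0.0490), among them those without DOX replicate 2 (-0.21, adjusted p = 0.0388) and without vehicle replicate 3 (-0.21, adjusted p = 0.0318, limma).

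GCLM (chr1:93885205-93909456, minus strand) encodes the modifier subunit of the same enzyme. In PBRM1shRNA cells it was at 10.8, 9.82 and 10.7 TPM, against 9.91, 8.29 and 10.2 TPM in control cells. The groups overlapped and GCLM did not pass (0.13 ± 0.088, limma, adjusted p = 0.199), unlike GCLC. With the replicate number as a block, which these libraries share, it was called higher (0.13, limma, adjusted p = 0.0138), as it was after median-ratio (0.16) and quantile (0.20) scaling. IRF1shRNA cells had 6.76, 8.64 and 7.11 TPM, against 7.44, 5.80 and 5.17 TPM in control cells. GCLM was higher on average by 0.26 ± 0.15 with an overlap at control replicate 1 (limma, adjusted p = 0.202), and without that replicate it was called higher (0.39, adjusted p = 0.00678), as after removal of short noncoding RNAs (0.41) and after median-ratio (0.32) and quantile (0.34) scaling. With DOX its level was 32.5, 31.7 and 30.5 TPM, against 39.7, 39.6 and 38.5 TPM with vehicle. All DOX libraries were lower, and GCLM fell by 0.31 ± 0.046 on the log2 scale (limma, adjusted p = 5.81e-04).

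AKR1C1 (chr10:4963253-4983283, plus strand) encodes an aldo-keto reductase that reduces carbonyls and progesterone, and it was the least abundant of the 9 transcripts. It had 0.229, 0.113 and 0.194 TPM in PBRM1shRNA cells, against 1.70, 1.57 and 2.28 TPM in control cells. All silenced libraries were far below the control libraries, at -1.27 ± 0.071 on the log2 scale (limma, adjusted p = 1.64e-69). The value was -2.81 with a pseudocount of 0.1 and -2.39 with short noncoding RNAs removed. With DOX it was at 0.718, 1.23 and 0.645 TPM, against 3.31, 3.18 and 2.57 TPM with vehicle. The libraries did not overlap, with a log2 fold change of -1.12 ± 0.16 (limma, adjusted p = 4.46e-04), or -1.74 with a pseudocount of 0.1. In the PBRM1 experiment AKR1C1 passed the filter of 1 TPM in 3 libraries only through its control libraries, and in the MUC1 experiment the 3 vehicle libraries alone were enough, with 1 DOX library also at 1 TPM. Selection by the filter thus favoured a difference in AKR1C1, and its calls are not independent of the filter. The counts of members by direction below are given with and without it. In the IRF1 experiment AKR1C1 was below the filter, at 0.124, 0.161 and 0.0968 TPM in IRF1shRNA cells, against 0.287, 0.164 and 0.226 TPM in control cells. The groups did not overlap by a margin of 0.161 against 0.164 TPM (exact two-sided permutation p = 0.1, the smallest possible). Tested under 2 alternatives, it was -0.39 (limma, adjusted p = 0.00695) with short noncoding RNAs removed and -0.12 (limma, adjusted p = 0.115) without a filter.

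Reads of AKR1C1 may be shared with its near copies. Its longest reading frame of 972 bases was 98.05% identical to that of AKR1C2 (953 bases) and 91.5% identical to that of AKR1C3 (889 bases), so the split of reads among them is uncertain. AKR1C2 had 0.00488, 0.00678 and 0.0178 TPM in PBRM1shRNA cells, against 0.175, 0.156 and 0.142 TPM in control cells. AKR1C3 had 0.0759, 0.105 and 0.138 TPM there, against 0.499, 0.471 and 0.439 TPM in control cells. Both copies were lower in every silenced library, at levels too low to be tested. In MDA-MB-436 cells both were listed at 0 in all DOX libraries and in all but 1 vehicle library each.

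Counted over the members tested, silencing of PBRM1 was associated with 7 of 9 lower, 0 higher and 2 that did not pass, or 6 of 8 lower without AKR1C1. By the same rule 34.8% of all 10639 tested genes were lower and 24.6% higher. The members' median log2 fold change was -0.55, or -0.48 without AKR1C1, beside -0.05 over all tested genes, and HMOX1 and AKR1C1 were past a log2 fold change of -1, as were 3.86% of all genes. Libraries did not overlap for 7 members, or 6 without AKR1C1, all below their controls, beside 35.4% of all genes below and 26.5% above. With DOX 6 of 9 were lower, 1 was higher (KEAP1) and 2 did not pass, or 5 of 8 lower without AKR1C1, beside 23.4% lower and 27% higher of 13229 tested genes. The median was -0.52 for the members, or -0.41 without AKR1C1, and 0.02 for all genes, and HMOX1 and AKR1C1 were past -1, as were 1.35% of all genes. Without overlap, 7 members, or 6 without AKR1C1, lay below and 1 above the vehicle libraries, beside 27.7% and 31.5% of all genes. With IRF1 silenced 1 of 8 was lower (NQO1), 1 was higher (HMOX1) and 6 did not pass, beside 18.5% lower and 5.76% higher of 9135 genes, with medians of 0.01 and -0.06. Libraries did not overlap for 1 member below and 1 above, beside 25% and 8.9% of all genes. The 9 genes were a chosen list and no set test was made. Removal of short noncoding RNAs moved the median of all genes in the PBRM1 experiment to -0.16. Each of the 21 called results of members kept its direction and its call in all 319 refits. These calls were made against 0 and not relative to the median of all genes. Only refits in which the gene passed the filter are counted. The results of AKR1C1 are included, although its calls are not independent of the filter. In the PBRM1 experiment AKR1C1 was tested in 11 refits and fell out of the test when 1 control library was omitted.

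**Figure D3:**
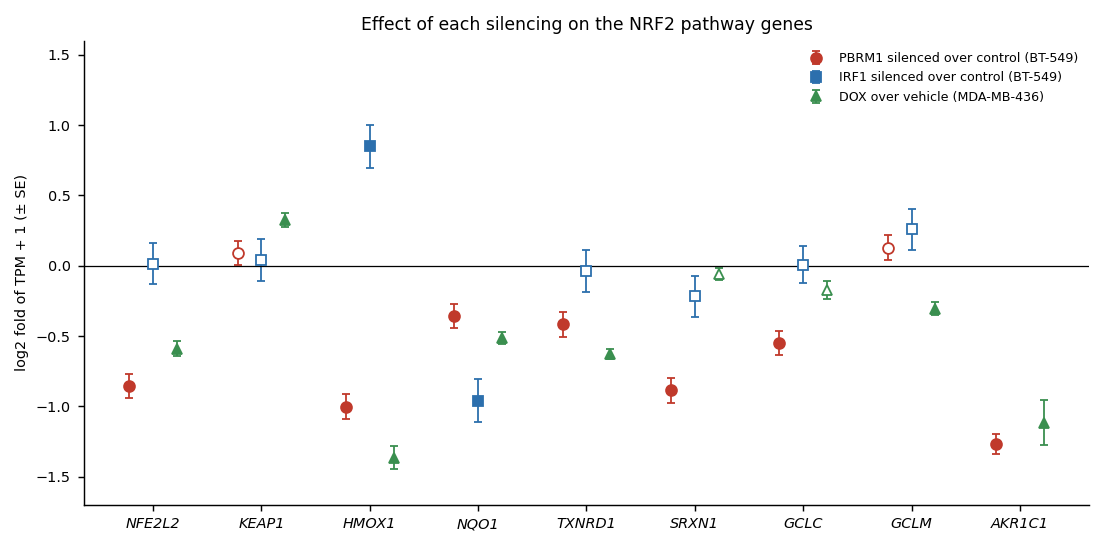
Log2 fold change (difference of mean log2(TPM + 1), silenced minus control or DOX minus vehicle; bars are SE) of the 9 genes in the 3 experiments, with filled points for adjusted p under 0.05 (limma). Points for PBRM1 silencing and DOX lie mostly below 0, down to -1.27 and -1.37, those for IRF1 silencing lie around 0 except for HMOX1 (0.85) and NQO1 (-0.96), and KEAP1 with DOX (0.32) is the filled point above 0 outside the IRF1 experiment.

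Since PBRM1 and IRF1 were silenced in the same line, the difference between their effects was tested over the 12 BT-549 libraries, as the PBRM1 effect minus the IRF1 effect. Of the 8 members tested 4 had a lower value under PBRM1 silencing, 1 had a higher value and 3 did not pass, beside 18.9% lower and 22.3% higher of 9032 genes. HMOX1 differed most, by -1.85 ± 0.17 (log2, limma, adjusted p = 6.31e-27). NFE2L2 (-0.87 ± 0.16, limma, adjusted p = 8.98e-07), SRXN1 (-0.67 ± 0.16, adjusted p = 2.11e-04) and GCLC (-0.56 ± 0.15, adjusted p = 7.46e-04) also had a lower value under PBRM1 silencing. The GCLC difference was -0.84 with short noncoding RNAs removed. NQO1 went the other way, since it fell further with IRF1 silenced (0.60 ± 0.17, limma, adjusted p = 0.00134), and this difference was 0.28 under quantile scaling. For TXNRD1 the difference of -0.38 ± 0.17 (limma, adjusted p = 0.0536) was close to the threshold and passed under 7 of 20 alternatives, among them those without PBRM1 experiment control replicate 2 (-0.44), IRF1shRNA replicate 1 (-0.45) or IRF1 experiment control replicate 1 (-0.51). GCLM (-0.13 ± 0.16, adjusted p = 0.540) and KEAP1 (0.05 ± 0.16, adjusted p = 0.828) did not differ beyond their error (limma). GCLM passed with short noncoding RNAs removed (-0.35) and under both rescalings (-0.16 and -0.15). KEAP1 turned and passed with short noncoding RNAs removed (-0.14, limma, adjusted p = 0.0385). In that refit the median over all genes was itself -0.19, and 5935 of 12226 genes were called lower. The 2 experiments have separate control libraries and tables, so the experiment and the silenced gene are told apart only through each one's own controls. The scales of the 2 tables differ, so adding 1 to each TPM compresses the effects on low genes by unlike amounts in the 2 experiments.

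Other genes linked to NRF2 as targets were described from a list of 44. After PBRM1 silencing 17 of 33 tested were lower, 8 higher and 8 did not pass (median log2 fold -0.20), beside 34.8% lower and 24.6% higher of all genes. EPHX1, a microsomal epoxide hydrolase, fell to 14.8 ± 0.407 TPM in PBRM1shRNA cells, against 36.4 ± 2.50 TPM in control cells (log2 fold -1.24). UGDH, which makes UDP-glucuronate for conjugation, fell to 12.7 ± 1.02 TPM, against 31.1 ± 3.26 TPM (-1.23), and OSGIN1 fell to 0.448 ± 0.0347 TPM, against 2.19 ± 0.310 TPM (-1.14). Not all moved that way: PRDX1, the abundant cytosolic peroxiredoxin, rose to 303 ± 22.2 TPM, against 170 ± 12.7 TPM in control cells (0.83), as did TXN, which encodes thioredoxin (0.45), and FECH, the ferrochelatase of haem synthesis (0.59). With DOX 17 of 35 tested were lower, 7 higher and 11 did not pass (median -0.18), beside 23.4% lower and 27% higher of all genes. TRIM16L (-1.26) and ABCC2, an export pump for glutathione conjugates (-0.97), fell most, and SLC7A11, the cystine importer, fell to 21.7 ± 1.46 TPM with DOX, against 33.9 ± 1.34 TPM with vehicle (-0.62). GSTA4, a glutathione transferase, rose to 9.37 ± 1.18 TPM with DOX, against 6.31 ± 0.807 TPM with vehicle (0.51), beside TALDO1 (0.26).

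With IRF1 silenced 9 of 29 tested targets of that list were lower, 2 higher and 18 did not pass (median -0.18), beside 18.5% lower and 5.76% higher of all genes. CBR3, a carbonyl reductase, fell to 3.58 ± 0.197 TPM in IRF1shRNA cells, against 11.9 ± 1.19 TPM in control cells (-1.49), followed by IDH1 (-1.002) and UGDH (-0.84). TRIM16L rose to 6.96 ± 0.911 TPM, against 3.53 ± 0.394 TPM (0.81), and SLC7A11 was also called higher (0.37), a call kept in 7 of 13 alternatives. In this experiment the counts moved widely over the 14 alternatives, between 1 and 11 higher and between 4 and 16 lower, so they give no firm split. Counts of all genes moved as well, from 172 to 4501 higher and from 645 to 3742 lower. In the PBRM1 experiment they ran from 1879 to 4558 higher and from 1801 to 6407 lower. The ranges of the lists below are to be read beside these. Of the list, 4 genes in the PBRM1 experiment, OSGIN1 among them, 2 in the IRF1 experiment and 0 in the MUC1 experiment had passed the filter on low values through 1 group alone, and without them 14 of 29 were lower and 7 higher after PBRM1 silencing and 9 of 27 were lower and 2 higher after IRF1 silencing.

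Regulators and partners of NRF2 formed a list of 18. After PBRM1 silencing 11 of 17 tested were lower, 2 higher and 4 did not pass (median -0.41), beside 34.8% lower and 24.6% higher of all genes. TRIM21, an interferon-inducible ubiquitin ligase, fell to 1.66 ± 0.0819 TPM in PBRM1shRNA cells, against 9.85 ± 0.838 TPM in control cells (-2.03), and MAFF, a small MAF partner, to 7.33 ± 0.504 TPM, against 23.7 ± 1.84 TPM (-1.57). SQSTM1, the p62 receptor that draws KEAP1 into autophagy, fell to 92.4 ± 1.96 TPM, against 170 ± 8.52 TPM (-0.87), and BTRC (0.49) and RBX1 (0.36), both parts of ubiquitin ligases that can act on NRF2, rose. With DOX 5 of 18 were lower, 6 higher and 7 did not pass (median -0.05), beside 23.4% lower and 27% higher of all genes. NFE2L3, a relative of NFE2L2, fell to 7.17 ± 0.882 TPM with DOX, against 18.9 ± 1.45 TPM with vehicle (-1.29), SQSTM1 fell (-0.49) and MAFK, another small MAF, rose to 27.7 ± 1.40 TPM, against 16.6 ± 0.999 TPM (0.70). SESN2 (0.57) rose, and CHD6 (-0.25) and BACH2 (0.35) kept their calls in 10 of 14 and 6 of 13 alternatives. With IRF1 silenced 6 of 17 were lower, 0 higher and 11 did not pass (median -0.14), beside 18.5% lower and 5.76% higher of all genes. MAFK (-0.51) and NFE2L3 (-0.48) fell, and TRIM21 was lower (-1.08) but had passed the filter through its control libraries alone, without which 5 of 16 were lower. The count of lower genes ran from 1 to 8 over the alternatives.

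Genes of glutathione synthesis and use (35) were split in direction. In the PBRM1 experiment 10 of 27 tested were higher, 8 lower and 9 did not pass (median 0.09), beside 34.8% lower and 24.6% higher of all genes. GLRX, which encodes glutaredoxin, fell to 0.503 ± 0.0710 TPM in PBRM1shRNA cells, against 3.35 ± 0.306 TPM in control cells (-1.53), with GGT5 (-0.93) and GSTM4 (-0.54), while MGST3 (0.60), GLO1 (0.43) and SLC7A11 (0.43) rose. GLRX, GGT5 and GSTM4 had passed the filter on low values only through the control libraries, in which they are high, and without the 4 genes that passed through 1 group alone 10 of 23 were higher and 4 lower. With DOX 11 of 29 were higher, 5 lower and 13 did not pass (median 0.13), beside 23.4% lower and 27% higher of all genes. CHAC1, which degrades glutathione, rose to 10.2 ± 1.18 TPM with DOX, against 4.57 ± 0.460 TPM with vehicle (1.01). CHAC2 (0.65) and SLC3A2, the partner chain of SLC7A11 (0.57), rose too, and GPX8 (-0.42) fell. GGT5 was lower (-1.18) but had passed the filter through the vehicle libraries alone, and without it 4 of 28 were lower. SLC7A11 was thus called higher in PBRM1shRNA cells and lower with DOX. In the IRF1 experiment 2 of 26 were higher, 9 lower and 15 did not pass (median -0.17), beside 18.5% lower and 5.76% higher of all genes, with GSTM1 (-0.51), ETHE1 (-0.50) and SLC3A2 (-0.49, a call kept in 9 of 14 alternatives) lowest and GSTZ1 (0.32) higher in 7 of 10 alternatives. GSTM1 and GSTZ1 had passed the filter through 1 group alone, and without the 3 such genes 1 of 23 was higher and 7 lower. Over the alternatives the lower genes numbered 2 to 12 after PBRM1 silencing and 1 to 14 after IRF1 silencing, and the higher genes 7 to 13 and 0 to 8.

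In the thioredoxin and peroxiredoxin system (25 genes) the members TXNRD1 and SRXN1 stood apart from PRDX1 and TXN in the direction of their change after PBRM1 silencing. Of 23 tested 10 were higher, 7 lower and 6 did not pass (median 0.08), beside 34.8% lower and 24.6% higher of all genes. TXNIP, the thioredoxin inhibitor, fell to 12.9 ± 0.577 TPM in PBRM1shRNA cells, against 56.9 ± 3.77 TPM in control cells (-2.06), and PRDX6 to 27.9 ± 1.61 TPM, against 60.9 ± 3.36 TPM (-1.10). SESN2 (-0.77) fell and PRDX3 (0.47) rose. With DOX 12 of 24 were higher, 4 lower and 8 did not pass (median 0.17), beside 23.4% lower and 27% higher of all genes. There TXNIP rose to 40.6 ± 0.839 TPM with DOX, against 18.4 ± 1.02 TPM with vehicle (1.10), PRDX5 rose (0.52), and SESN3 (-0.63), NXN (-0.25) and TXNRD2 (-0.22, kept in 8 of 14 alternatives) were lower. With IRF1 silenced 1 of 21 was higher, 5 lower and 15 did not pass (median -0.02), beside 18.5% lower and 5.76% higher of all genes. TXNIP fell to 3.70 ± 0.471 TPM in IRF1shRNA cells, against 13.6 ± 2.89 TPM in control cells (-1.62), MSRA fell (-0.55), and TXNL1 (-0.48) and TXNDC12 (0.43) kept their calls in 9 and 7 of 14 alternatives. Higher genes numbered 0 to 10 and lower genes 2 to 9 over the alternatives of the IRF1 experiment, against 8 to 15 and 4 to 7 in the PBRM1 experiment.

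Enzymes of superoxide and peroxide formed a list of 16. After PBRM1 silencing 5 of 9 tested were lower, 2 higher and 2 did not pass (median -0.26), beside 34.8% lower and 24.6% higher of all genes. Catalase (CAT) fell to 12.9 ± 0.659 TPM in PBRM1shRNA cells, against 26.5 ± 1.63 TPM in control cells (-0.99), and the mitochondrial dismutase SOD2 to 149 ± 8.48 TPM, against 291 ± 23.0 TPM (-0.96). CYBA, a subunit of NADPH oxidases, also fell (-0.94), while the cytosolic dismutase SOD1 rose (0.42) and GPX1 was called higher (0.22) in the primary test and in 11 of 14 alternatives. With the replicate block 4 were higher, beside 3457 of all 10639 genes. With IRF1 silenced 3 of 9 were lower, 0 higher and 6 did not pass (median -0.27), beside 18.5% lower and 5.76% higher of all genes, and the lower ones in the list were SOD2 (-0.85), CYBA (-0.78) and CAT (-0.77). With DOX 4 of 9 were higher, among them PRDX5, SOD1 (0.20) and GPX1 (0.18), 2 lower (PXDN, -0.80, and CAT, -0.22) and 3 did not pass (median 0.07), beside 23.4% lower and 27% higher of all genes.

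Genes of haem and iron handling (27) were split. After PBRM1 silencing 7 of 26 tested were higher, 7 lower and 12 did not pass (median 0.05), beside 34.8% lower and 24.6% higher of all genes. FTL, the ferritin light chain, fell to 1156 ± 44.6 TPM in PBRM1shRNA cells, against 1903 ± 51.3 TPM in control cells (-0.72), with BLVRB, a biliverdin reductase (-0.65), and BACH1, the haem-sensing repressor of HMOX1 (-0.57). ACO1 (0.67) and CPOX (0.38) rose. With the replicate block 11 were lower, beside 4573 of all 10639 genes. Over all alternatives 4 to 14 were higher and 6 to 12 lower. With DOX 9 of 27 were higher, 7 lower and 11 did not pass (median 0.02), beside 23.4% lower and 27% higher of all genes. FTL fell to 8655 ± 260 TPM with DOX, against 11998 ± 468 TPM with vehicle (-0.47), beside the iron exporter SLC40A1 (-0.35) and ABCB6 (-0.33), whereas NCOA4, the receptor for ferritin autophagy (0.50), HMOX2, the constitutive haem oxygenase (0.42), and CPOX (0.41) rose. In IRF1shRNA cells, where HMOX1 rose, 4 of 25 were lower, 1 higher and 20 did not pass (median -0.10), beside 18.5% lower and 5.76% higher of all genes. BLVRA was lower (-0.62), UROD (-0.44) and PCBP1 (-0.39) kept their calls in 10 and 8 of 14 alternatives, and UROS (0.35) kept its own in 6 of 13. The counts of this experiment ran from 1 to 13 lower and from 0 to 10 higher.

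NADPH, the cofactor of NQO1 and TXNRD1, is supplied by enzymes of which 15 genes were listed. After PBRM1 silencing 2 of 13 tested were lower, TKT (-0.44) and PGD (-0.20, kept in 8 of 14 alternatives), 1 was higher, NADK (0.26), and 10 did not pass (median -0.02), beside 34.8% lower and 24.6% higher of all genes. With the replicate block 5 were lower and 2 higher, beside 4573 and 3457 of all 10639 genes. Over all alternatives 1 to 7 were lower and 0 to 5 higher. With IRF1 silenced 5 of 13 were lower, 1 higher and 7 did not pass (median -0.19), beside 18.5% lower and 5.76% higher of all genes. IDH1 fell to 4.62 ± 0.625 TPM in IRF1shRNA cells, against 10.3 ± 1.62 TPM in control cells (-1.002), TALDO1 fell (-0.71), and NNT (-0.50) and IDH2 (0.38) kept their calls in 10 and 8 of 14 alternatives. With DOX 6 of 14 were higher, among them NADK2 (0.43) and PGLS (0.38), 3 were lower (NNT, -0.34, ME1, -0.33, and TKT, -0.29) and 5 did not pass (median 0.13), beside 23.4% lower and 27% higher of all genes.

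**Figure D4:**
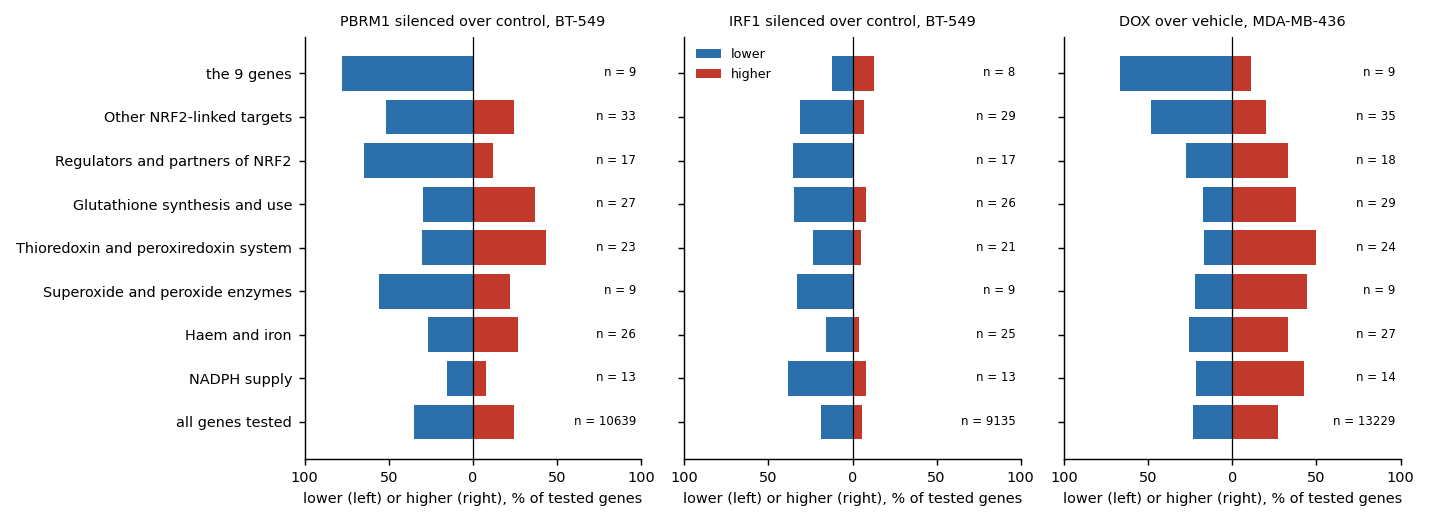
Share (percent) of the tested genes of each list called lower (left, blue) and higher (right, red) at adjusted p under 0.05 in limma, 1 panel an experiment, with the number tested printed and all tested genes as their own bar. The members, AKR1C1 included, reach 77.8% lower after PBRM1 silencing and 66.7% with DOX, against 34.8% and 23.4% of all tested genes. In the same order, the regulators and partners of NRF2 have 64.7% and 27.8% lower and the other NRF2-linked targets 51.5% and 48.6%. The superoxide list has 55.6% and 22.2% lower, and the glutathione list 29.6% and 17.2%.

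The genes whose pattern over the 18 libraries was nearest to a member were found by the root mean square distance of log2(TPM + 1), centred within each table, among 8893 genes tested in all experiments. These were chosen by their values, and the distances are a description. For NFE2L2, whose own root mean square spread was 0.321, they were TGFBR1 (0.0656), SLIT2 (0.0732) and GEM (0.0746). KEAP1 varied little (0.125), and its nearest were SSU72 (0.0402), ABHD12 (0.0408) and MRPL2 (0.0412). HMOX1 varied most (0.554) and had no close neighbour: MYBL1 (0.237), COL6A1 (0.249) and COL6A2 (0.253) were the nearest. Among the other members, distances from HMOX1 ran from 0.309 (AKR1C1) and 0.338 (NFE2L2) to 0.611 (NQO1) and 0.629 (KEAP1).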

How the data were processed

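RNA-seq reads had been mapped by the authors with STAR to GRCh38 and counted per gene, and DESeq2 was used by them, with versions not stated. No source used here names the annotation or the program behind the TPM values. Deposited by the authors were TPM tables for the 3 experiments, each library summing to 1000000, and 3 tables of DESeq2 results, of which the deposited mean normalised count over all libraries (a signal with no replicate) gave depth only: from 11.6 for AKR1C1 in the MUC1 experiment to 25465 for TXNRD1 in the IRF1 experiment. Their fold changes, errors and p-values are the authors' own comparison and were not used. Total reads per library are unknown, and libraries had 10057 to 10761 (PBRM1), 8632 to 9523 (IRF1) and 12988 to 13188 (MUC1) genes at 1 TPM or more. No 2 libraries held identical values.

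Genes with at least 1 TPM in at least 3 of 6 libraries were tested on log2(TPM + 1) with limma 3.58.1 (R 4.3.3; eBayes with trend, two-sided, Benjamini-Hochberg adjusted p under 0.05), per experiment on its own 6 libraries, and over the 12 BT-549 libraries for the difference of effects. In BT-549 the prior degrees of freedom were infinite, so each SE follows the expression level. The script was tested on simulated data. Same-numbered libraries deviated together in the PBRM1 experiment (correlations 0.455, 0.309 and 0.290, from the numbers in the column names), where control columns match the group only. Alternatives were other pseudocounts, filters and scalings (short noncoding RNAs removed, median-ratio, quantile), eBayes without trend, a replicate block and each library left out. The members and lists were chosen with earlier results of these data known. Named list genes were up to 3 higher and 3 lower per list and experiment, by size among called genes without overlap between groups; nearest patterns are named for NFE2L2, KEAP1 and the member with the largest fold change. A gene that the naming rule selects is not reported here.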

Additional observations from a re-analysis of the deposited data

How the results depend on the processing

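All 21 called results of members, those of AKR1C1 included, kept direction and call in 319 of 319 refits in which the gene was tested. For AKR1C1 this is no measure of stability, since its calls depend on the filter and refits in which it failed the filter are left out. Counts over all genes were less stable. In the PBRM1 experiment 3707 genes were lower and 2620 higher (41.4% of calls higher); lower genes numbered 1801 with a mean TPM of at least 5 and 6407 with short noncoding RNAs removed (30.9% higher), and higher genes 4558 under quantile scaling (57.1% higher). In the IRF1 experiment 526 were higher and 1693 lower (23.7% higher). Higher genes numbered 864 without a filter and 172 with a mean TPM of at least 5, and lower genes 645 with that minimum. With short noncoding RNAs removed there were 4501 higher and 3742 lower (54.6% higher), under median-ratio scaling 3059 and 3298 (48.1%), and under quantile scaling 3626 and 2781 (56.6%). Leaving out 1 library gave 174 (control replicate 2) to 1463 (control replicate 1) higher and 919 (control replicate 2) to 1830 (IRF1shRNA replicate 2) lower. For the difference of effects, 1708 genes were lower and 2014 higher; lower genes numbered 3475 without a filter, 758 with a mean TPM of at least 5, 5935 with short noncoding RNAs removed (31.1% higher, against 54.1%), 3317 under median-ratio and 3287 under quantile scaling, and higher genes 3393 and 3195 under these scalings. The cause was not tested.

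In IRF1shRNA cells TXNRD1 turned to 0.0795 with short noncoding RNAs removed, 0.0307 under median-ratio and 0.0453 under quantile scaling, and ran from -0.153 to 0.0930 with 1 library left out, as GCLC did from -0.0802 to 0.114, NFE2L2 from -0.0805 to 0.143 and KEAP1 from -0.0281 to 0.122. The difference of effects for KEAP1 turned to -0.14 with short noncoding RNAs removed, beside a median of -0.19 over all genes, and to -0.0065 under quantile scaling. It ran from -0.0314 to 0.119 with 1 library left out. None of these was called in the primary test; calls of theirs under single alternatives are given with each gene above, the KEAP1 difference at -0.14 among them (limma, adjusted p = 0.0385).

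With the replicate number as a block the PBRM1 experiment had 3457 higher and 4573 lower genes and the IRF1 experiment 189 and 927, and the block changed 1 of 34 member calls, GCLM in PBRM1shRNA cells. In the IRF1 experiment (correlations -0.209, 0.0854 and 0.228) and the MUC1 experiment (0.0530, -0.0364 and 0.00575) libraries share only a number. Depth limits AKR1C1 and its copies most, and TPM gives no read total, so no counting error can be set beside the other values.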
